A study of Mus musculus with 15 samples.

Results

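Round spermatids carrying transcripts of Spam1, which encodes the sperm surface hyaluronidase PH-20, were examined in testes of DBA/2J mice treated with the bromodomain inhibitor JQ1. These cells were chosen by detected transcripts: at least 3 of the acrosomal or sperm surface genes Acrv1, Spaca1, Spaca7, Tex36, Lyzl6 and Izumo1, at least 1 Spam1 UMI (unique molecular identifier, 1 counted transcript), at most 1 UMI on the meiotic genes Sycp1, Pou5f2 and Piwil1 together, and less than 10% of UMIs on Prm1, Prm2, Tnp1 and Tnp2. Of 101610 barcodes, 53050 passed the filters on genes, UMIs and mitochondrial share, and 2328 of those met the rule. They are called Spam1-positive round spermatids here, because their working description as later round spermatids did not hold for their position in the control libraries (below). The levels of the genes in the rule chose the cells and are given only as a description.

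Single-cell 3′ RNA libraries had been made from 1 testis of each of 15 mice, 3 per group and 1 library per mouse. T mice received 50 mg/kg JQ1 by daily intraperitoneal injection for 3 wk and were sampled at 10 wk of age, beside VC-T mice given the vehicle, DMSO diluted in (2-hydroxypropyl)-β-cyclodextrin. R and VC-R mice had the same courses of JQ1 or vehicle and were sampled 6 wk after the last injection, at 16 wk of age. UC mice were untreated and 15 wk old, so in comparisons of T with UC, treatment, injection and age cannot be told apart. All groups are wild-type DBA/2J males, and JQ1 was given to the whole animal, not to germ cells alone.

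After meiosis, haploid round spermatids build the acrosome, the vesicle over the nucleus that holds the enzymes and membrane proteins used at fertilization. They also transcribe many genes whose mRNAs are stored and translated later, when the nucleus elongates and histones give way to transition proteins and protamines. JQ1 occupies the acetyl-lysine pockets of BET proteins, among them BRD2, BRD3 and the testis-specific BRDT, which bind acetylated histones and help recruit the elongation factor P-TEFb.

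The libraries held 9673587 to 98724982 UMIs. The 3 T libraries and VC-T 1, a vehicle library, held almost no cells with 10% or more of their UMIs on protamine and transition protein genes: 0.121%, 0% and 0.114% of kept cells in T and 0% in VC-T 1, against 44.5% to 67.0% in the other 11. The counts of 0 allow shares of up to 0.0862% in T 2 and 0.0861% in VC-T 1. The study excluded that vehicle library from its expression tests as an outlier, which it put down to technical and not biological variation. T was accordingly compared with UC, and with VC-T 2 and VC-T 3, and values for VC-T 1 are given beside the results. By its cell content VC-T 1 resembled T rather than the other libraries labelled vehicle. R 3 also stood apart, with a median of 2992 UMIs in its Spam1-positive round spermatids, where R 1 and R 2 had 5987 and 5022. Of the 2328 cells, 66 (2.84%) were marked as possible doublets, and only 2 shared a barcode with a Spam1-positive round spermatid of another library.

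The markers behind the rule were broadly present. Spaca1 was detected in 93.1% of the cells, Tex36 in 89.4%, Acrv1 in 87.2%, Spaca7 in 86.3%, Lyzl6 in 80.0% and Izumo1 in 45.0%. Meiotic cells, those with at least 3 UMIs on the 3 meiotic genes, had each of these in 17.9% to 40.7%, and Spam1 in 18.3%. Spam1 itself was sparse. A single Spam1 UMI admitted 1529 of the cells (65.7%), 549 had 2 and 250 had 3 or more, up to 10. Its detection depended on depth: in 5 equal classes of control round spermatids, from the shallowest to the deepest, the share with a Spam1 UMI went 28.9%, 30.4%, 37.8%, 36.0% and 40.0%. At the other edges of the rule, 295 cells had exactly 3 markers and 149 Spam1-positive cells with 2 fell just outside, while 31 cells had 8% to 10% of UMIs on the protamine and transition protein genes and 48 just outside had 10% to 12%. With 1 meiotic UMI, 1221 cells were kept, and 1035 with 2 were not.

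Position within the round spermatid stage was measured along an axis, the first principal component of expression in round spermatids of VC-R at equal depth. Its early end carried Lyar, Gkap1, AA467197 and Cox8c, and its late end carried Hmgb4, Cypt4, Spaca9, Scp2d1, Iqcf1 and Prm3. In 8 of 8 control libraries (UC, VC-R, VC-T 2 and VC-T 3), Spam1-positive cells had a lower, that is earlier, median position than Spam1-negative round spermatids, which met every other part of the rule. Library medians ran from −3.21 to 0.446 in the first class and from −2.40 to 5.59 in the second. R 1 and R 2 had the same order. In the 3 T libraries, VC-T 1 and R 3 the order was the opposite: Spam1-negative medians were −5.26, −5.87 and −5.44 in T, −5.02 in VC-T 1 and −0.483 in R 3, each earlier than the Spam1-positive median of that library. Across 10 bins of the axis that each held the same number of these controls' round spermatids, numbered 1 to 10 from early to late, the share of round spermatids with Spam1 was 23.6%, 46.5%, 49.6%, 51.6%, 47.6%, 48.8%, 49.2%, 18.9%, 5.91% and 4.33%. It was thus low at the start, level through the middle and lowest at the late end. Bins 4 to 7 held 57.0% of the Spam1-positive cells and bins 9 and 10 held 2.96%. Spam1 and the genes of the axis come from the same cells, so these figures describe the class and test nothing.

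**Figure D1:**
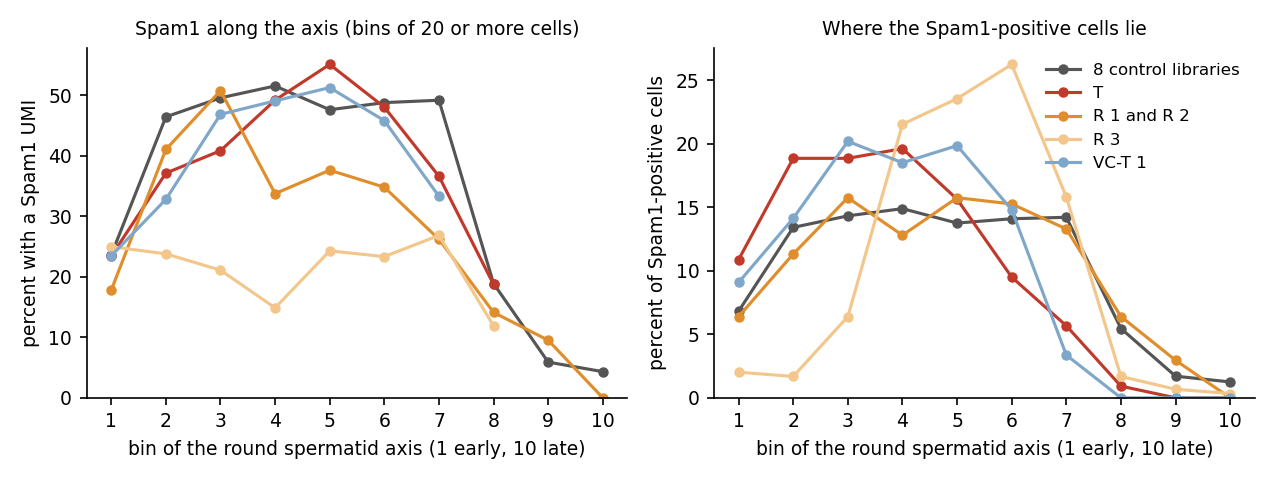
Left: percentage of round spermatids with a Spam1 UMI (y axis) in each of 10 bins of the round spermatid axis, early to late (x axis), for bins with at least 20 cells. Right: percentage of each set's Spam1-positive cells in each bin, with lines for the 8 control libraries together, T, R 1 and R 2, R 3 and VC-T 1; in the controls Spam1 is found in 51.6% of cells in bin 4 and 4.33% in bin 10, and T has 0.920% of its cells in the last 3 bins where the controls have 8.42%.

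Outside the rule, 10 genes stood highest in the UC Spam1-positive cells relative to every other class compared, each with at least 100 CPM (UMIs of the gene scaled to a common library total). 1700041C23Rik led with 231 ± 36.2 CPM (SD, n = 3), 2.51 times the highest of the Spam1-negative, meiotic and protamine-rich classes. It was followed by Lurap1 (2.35 times), Gm20268 (2.28), Smco4 (2.22), Pcdh9 (2.14), Cldnd1 (2.13), Nrm (2.13), Tex15 (2.12), Zdhhc11 (2.05) and Il31 (1.99). Tex15 is known for its role in meiotic recombination and transposon silencing, and Nrm encodes an inner nuclear membrane protein. Selection on Spam1 used the same cells, and these ratios are a description.

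The share of Spam1-positive round spermatids among kept cells did not differ between T and all its controls by more than the spread between libraries. They made up 7.53%, 6.81% and 5.88% of kept cells in T 1 to T 3. UC had 5.24%, 4.28% and 4.61%, and VC-T had 8.53%, 2.34% and 3.996%. The T values lay above all 3 UC values but below VC-T 1, and their 95% Wilson intervals, which cover counting error only, ran from 4.87% to 8.37%. Against the 6 UC and VC-T libraries, the mean of 6.74% ± 0.826 (SD, n = 3) exceeded that of 4.83% ± 2.05 (n = 6) by 1.91 percentage points (exact two-sided permutation test, p = 0.190). Without VC-T 1 the excess was 2.65 points with p = 0.0179, the smallest p this exact permutation test could give with 3 and 5 libraries. Kept cells of the other 11 libraries were 44.5% to 67.0% protamine-rich cells, which T lacked, so the share was also taken among round spermatids alone. Spam1-positive cells were 40.5% ± 3.09 of round spermatids in T (n = 3) and 35.03% ± 6.65 in the 6 controls (exact permutation p = 0.262). After each cell was thinned to 2000 UMIs the values were 27.5% and 24.6% (exact permutation p = 0.262).

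In R the shares of kept cells were 2.11%, 2.05% and 3.39%, against 2.51%, 3.51% and 7.01% in VC-R. The groups overlapped, and the mean of 2.52% ± 0.757 (n = 3) was 2.01 points below the mean of 4.53% ± 1.54 of UC and VC-R (n = 6, exact two-sided permutation test, p = 0.0833). As a share of round spermatids the cells were 11.1 points fewer in R (25.5% ± 4.52 against 36.6% ± 5.26, exact permutation p = 0.0357). After thinning, an alternative added once the data had been seen, the difference was −5.13 points, 19.4% against 24.6% (exact permutation p = 0.0238).

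**Figure D2:**
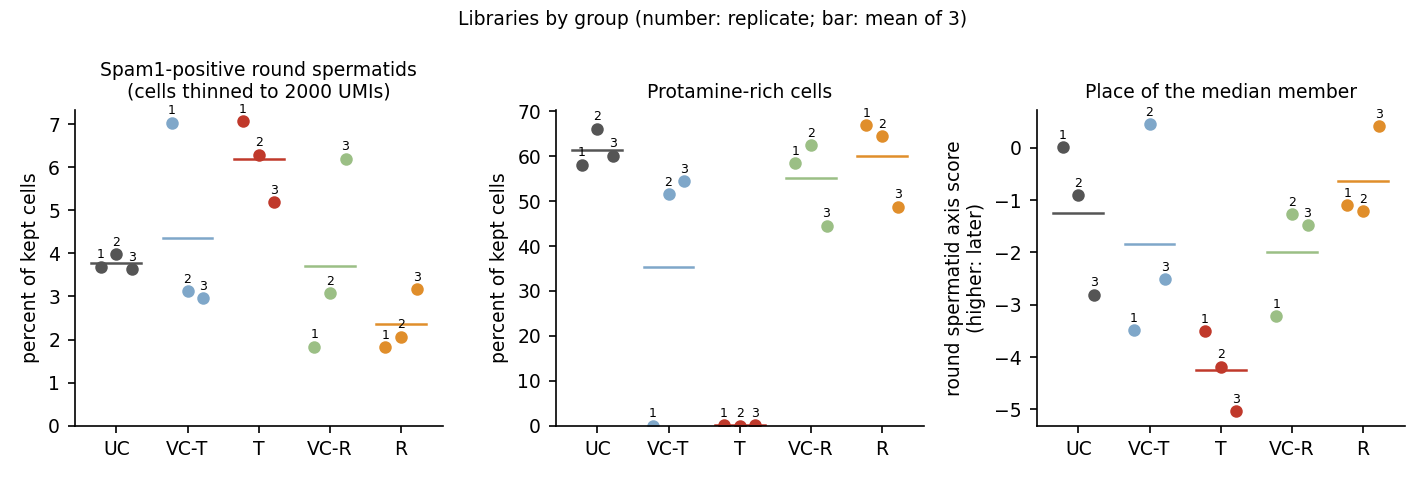
Each library by replicate number in the 5 groups, with a bar for the mean of 3 libraries. The panels give the share of kept cells that are Spam1-positive round spermatids after thinning to 2000 UMIs (%), the share of protamine-rich cells (%) and the median place of the Spam1-positive cells on the round spermatid axis; the 3 T libraries and VC-T 1 sit together near 0% protamine-rich cells and at axis medians of −5.04 to −3.48.

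The T cells had earlier scores on the axis. Their library medians were −3.50, −4.18 and −5.04, a mean of −4.24, while VC-T 1 lay at −3.48 and the medians of the 6 UC and VC-T libraries averaged −1.54. The difference of −2.70 axis units passed (exact two-sided permutation test, p = 0.0238, n = 3 and 6). The 500 axis genes include Car2, Paqr5, Tfam, 1700012A03Rik, 1700016C15Rik, 4930512J16Rik and 1700027A15Rik, all weighted towards the late end. These genes are called lower in T below. Less of their transcripts lowers the score by itself, so position and expression cannot be told apart in this difference. The last 3 bins held 6 T cells in all, 0.920% of T Spam1-positive cells, where the 8 control libraries had 8.42%. VC-T 1 had none there. Among R libraries the median lay 0.979 units later than in the controls (exact permutation p = 0.202), and 87.2% of the R 3 cells fell in bins 4 to 7, against 57.1% in R 1 and R 2.

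Gene expression was compared between libraries after summing the UMIs of the Spam1-positive cells of each mouse. The question was which transcripts of this stage differed while the drug was given. Against UC, 341 of 7202 genes tested (4.73%) were called by edgeR's quasi-likelihood test, at an adjusted p under 0.05 and a change of more than 2-fold: 271 were lower in T (3.76%) and 70 higher (0.972%). Against VC-T 2 and VC-T 3, 414 of 7173 (5.77%) were called, 354 lower (4.94%) and 60 higher (0.836%). The genes of the rule are left out of all these counts. Called in the same direction against both, which share the T libraries, were 199 lower and 5 higher genes, of which 96 and 1 reached 50 CPM in the higher group.

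Among the genes called lower against both controls and reaching 50 CPM, the largest falls were near complete. Car2, which encodes a cytosolic carbonic anhydrase, had 3.23, 0 and 2.12 CPM in T, from 5 UMIs in all, against 90.0, 39.9 and 41.2 in UC, a log2 fold change of −4.84 ± 0.48 (SE, n = 3 per group; edgeR adjusted p = 6.4e-10). Paqr5 (chr9:61953481-62026856, minus strand), a membrane progestin receptor gene, had 12.9, 0 and 6.37 CPM against 173, 90.2 and 85.7, a change of −4.03 ± 0.35. Tfam, which encodes the packaging and transcription factor of mitochondrial DNA and has a testis-specific transcript in the mouse, had 17.0, 10.4 and 10.6 CPM against 123, 76.3 and 67.2, a change of −2.78 ± 0.27. In each case all T libraries lay far below all UC libraries. In VC-T 1 the levels were 0.854 CPM for Car2, 5.98 for Paqr5 and 12.0 for Tfam, as low as in T. VC-T 2 and VC-T 3 had 72.1 and 35.3, 114 and 51.3, and 171 and 65.7 CPM of the same genes.

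The other genes named for the largest falls behaved alike. 1700012A03Rik had 19.4, 6.93 and 6.37 CPM in T and 102 to 142 in UC (−3.34 ± 0.25). 4930512J16Rik changed by −3.17, 1700016C15Rik by −3.10, the X-linked testis histone gene H2al3 by −2.74 and 1700027A15Rik by −2.71 on the log2 scale. After withdrawal none of these 8 genes was called: Car2 had 86.9, 73.6 and 121 CPM in R, and Paqr5 had 52.8, 110 and 154.

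**Figure D3:**
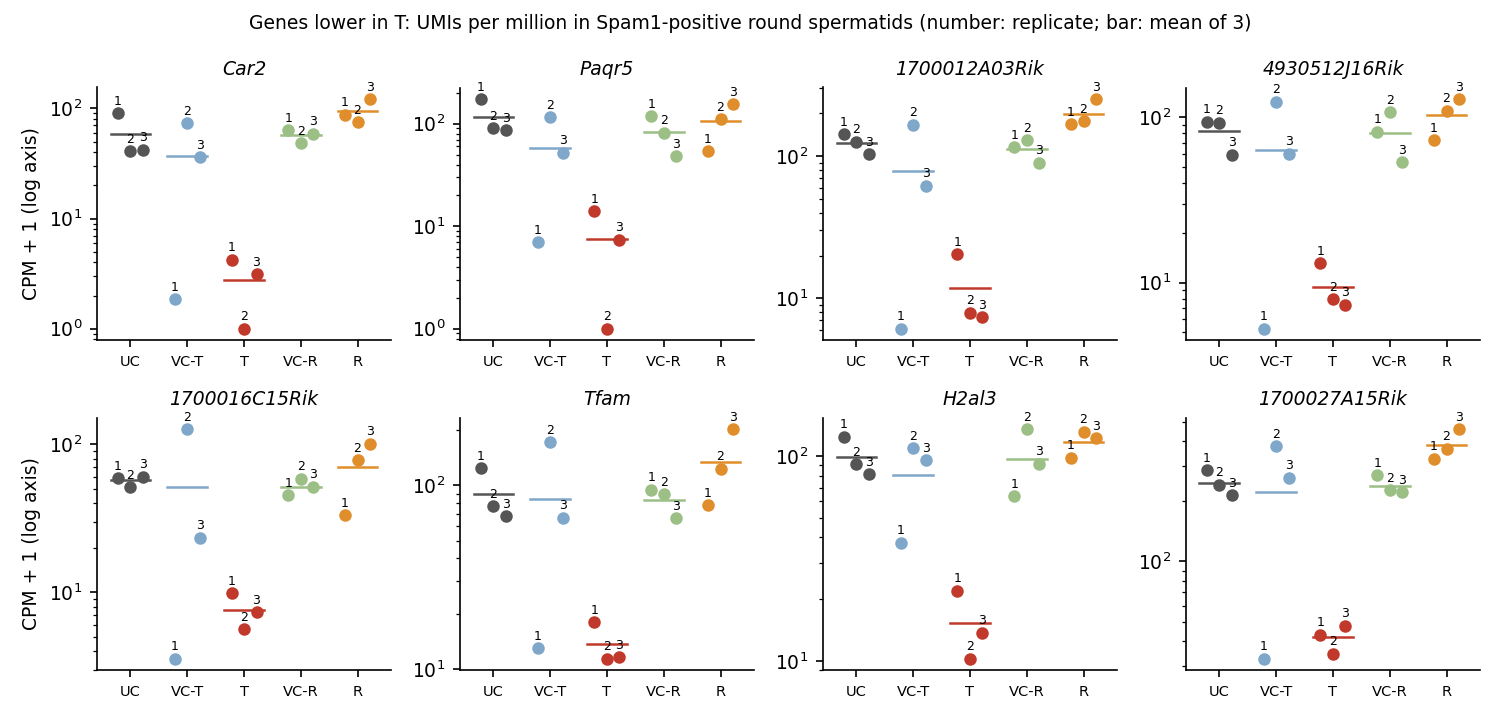
CPM + 1 on a log axis in the Spam1-positive round spermatids of each library (points, by replicate number) with the mean of 3 libraries (bar). The 8 genes are those that fell most in T among genes called lower against both controls and reaching 50 CPM. The 3 T libraries lie below all UC and VC-R libraries for every gene, and VC-T 1 lies with or near them, for example at 0.854 CPM for Car2 and 5.98 for Paqr5.

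The promoters of 3 of the genes named for the largest falls, and of Rps7, were read from RefSeq for build GRCm38.p6. Rps7 is described further on as a gene on which VC-T 1 sided with the controls. The windows ran from 250 bases before to 50 after the start, 5′ to 3′ on the gene's strand. They are shown because such genes are often discussed in terms of CREM and RFX, the factors that act on round spermatid promoters. Both strands were searched for the cyclic AMP response element TGACGTCA, its core TGACG and the RFX motif GTTGCC, which occur in 1.79%, 20.8% and 12.5% of all 32851 promoters in the table, and matches are in capitals. A promoter of Car2 is not shown.
Paqr5, chr9:62026741-62027040, minus strand: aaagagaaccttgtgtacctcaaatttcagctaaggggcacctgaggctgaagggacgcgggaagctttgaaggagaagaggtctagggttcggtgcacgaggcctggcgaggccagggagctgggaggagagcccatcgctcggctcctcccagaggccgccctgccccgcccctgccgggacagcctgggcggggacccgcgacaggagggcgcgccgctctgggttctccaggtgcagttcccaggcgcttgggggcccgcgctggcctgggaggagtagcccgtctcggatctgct
1700012A03Rik, chr6:32050038-32050337, plus strand: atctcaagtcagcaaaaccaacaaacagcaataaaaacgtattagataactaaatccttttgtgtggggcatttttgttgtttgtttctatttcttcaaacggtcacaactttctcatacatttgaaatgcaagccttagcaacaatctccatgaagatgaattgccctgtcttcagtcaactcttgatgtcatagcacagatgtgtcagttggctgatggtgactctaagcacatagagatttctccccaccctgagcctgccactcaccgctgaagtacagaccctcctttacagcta
4930512J16Rik, chr6:89285676-89285975, minus strand: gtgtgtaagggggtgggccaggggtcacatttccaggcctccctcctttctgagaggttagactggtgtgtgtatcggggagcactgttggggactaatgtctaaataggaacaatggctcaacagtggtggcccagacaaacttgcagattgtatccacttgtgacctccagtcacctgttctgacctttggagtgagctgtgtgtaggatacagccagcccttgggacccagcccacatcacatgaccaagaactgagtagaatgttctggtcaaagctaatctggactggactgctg
Rps7, chr12:28635904-28636203, minus strand: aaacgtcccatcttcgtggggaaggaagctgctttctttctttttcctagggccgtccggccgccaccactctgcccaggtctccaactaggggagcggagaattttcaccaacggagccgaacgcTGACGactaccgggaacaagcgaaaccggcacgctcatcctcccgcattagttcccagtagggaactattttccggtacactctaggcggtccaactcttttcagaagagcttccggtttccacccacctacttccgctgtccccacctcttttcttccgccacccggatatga
The first 3 windows held none of the 3 motifs, and the Rps7 window held 1 TGACG. These are letter matches only.

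Several genes of the elongating stage and of spermatid chromatin fell. Of 38 genes tested from a list of late spermatid genes, 9 fell and none rose, where 3.76% of all genes tested fell. The median log2 change of the list was −0.47 beside 0.01 over all genes tested. Tssk6, a kinase needed for histone removal, had 53.4, 47.3 and 46.7 CPM in T against 302, 158 and 176 in UC (−2.17 ± 0.19, edgeR adjusted p = 6.2e-11). Cabs1, a calcium-binding protein of the flagellum, had 114, 91.2 and 61.5 against 375, 283 and 232 (−1.73). Tex37 changed by −2.34, Fam71b by −2.33, Spem1 by −1.91, Spata3 by −1.37 and Spata18 by −1.33, and Spem2 and Fscn3 also fell. Of 11 testis histone genes tested, 5 fell and none rose, with a median of −0.77, again beside 3.76% of all genes falling. The spermatid H2A variant genes H2al3, H2al1m (−1.54), H2al1n (−1.19) and H2al2a (−1.37) were among them, with the linker histone gene H1fnt (−1.02). H2al2a was at 93.0, 85.4 and 70.0 CPM in T and 240, 213 and 171 in UC.

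None of 29 acrosome genes tested was called in T against UC, beside 4.73% of all genes tested. Their median change was −0.21, and 12 had an adjusted p under 0.05 for a smaller decrease. Over all 7202 genes tested, 901 had an adjusted p under 0.05 for a decrease of any size. Crisp2, a sperm head and tail protein, had 2164 to 2279 CPM in T and 2025 to 2308 in UC (−0.04 ± 0.07). Dkkl1, an acrosomal protein gene, had 1352 to 1407 CPM against 1522 to 1596, with a change of −0.29. For 26 sperm-egg interaction genes tested the median change was −0.33. An edgeR adjusted p under 0.05 was found for a decrease of any size in 11 of them and for an increase in 1. Of the 26, 2 fell past both limits, where 3.76% of all genes tested did. They were Prss37, a serine protease-like protein of the sperm surface programme (19.4, 15.0 and 4.24 CPM against 63.4, 38.2 and 38.0, −1.71), and Calr3, a testis chaperone of the endoplasmic reticulum (−1.34). Of 13 genes of the CatSper calcium channel none was called, again beside 4.73% of all genes tested. Efcab9, a calcium sensor of that channel, lay below all UC libraries at 306, 335 and 329 CPM against 393, 463 and 399 (−0.48, edgeR adjusted p = 0.00042).

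No gene tested from the lists of spermatid programme regulators and of BET and P-TEFb genes was called against UC, beside 4.73% of all genes tested. None of 24 regulators of the spermatid programme was called, with a median of 0.11. Of these, 3 had an edgeR adjusted p under 0.05 for a smaller decrease and none for an increase. Over all 7202 genes tested, 901 had one for a decrease of any size. Fhl5, an axis gene weighted towards the late end, had 215, 256 and 257 CPM in T against 432, 401 and 347 in UC. Crem, the master activator of this programme, had 553, 531 and 488 CPM in T against 530, 579 and 525 in UC (−0.15 ± 0.09, edgeR adjusted p = 0.25). None of 7 BET and P-TEFb genes tested was called either. Brdt, the testis-specific target of JQ1, had 108, 119 and 115 CPM against 112, 98.9 and 115 (−0.06 ± 0.14, edgeR adjusted p = 0.84). Brd2 (0.24), Brd3 (0.14) and the P-TEFb regulator Larp7 (0.24) had small positive changes that did not pass. Hexim1 was too low for the test, seen in 0.301% of the cells. Of 21 mRNA storage and germ granule genes, with Pabpc1 (0.09) and Ybx3 (−0.04) the most abundant, none was called against UC, and Qk, an RNA-binding protein gene, was called higher against VC-T 2 and VC-T 3.

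Over all genes tested against UC, 4.73% were called and 3.76% were called lower, and the counts of this paragraph stand beside those shares. Among 32 flagellar and transport genes 1 fell, Ift172, a subunit of the intraflagellar transport machinery (104, 106 and 55.2 CPM against 217, 198 and 206, −1.25). Of 17 sex-linked post-meiotic genes tested, the only call was that of H2al2a, which stands on chromosome 2 in the annotation used. Of 12 stress and apoptosis genes tested, Herpud1, which acts in the degradation of endoplasmic reticulum proteins, fell from 60.0, 45.1 and 29.3 CPM to 5.66, 2.31 and 2.12 (−3.53 ± 0.40), and the chaperone gene Hsph1 by −1.48. VC-T 1 had 5.98 CPM of Herpud1. None of 21 meiotic genes and neither of 2 spermatogonial genes tested was called against UC. Of the markers of testicular somatic cells, Leydig cell, macrophage, myoid and endothelial, and erythroid genes were too low to test, and the single Sertoli cell gene tested was not called.

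Most of the lower genes were transcripts that the protamine-rich cells held at higher levels. Of the 271, 210 (77.5%) were higher in the protamine-rich cells of UC than in the Spam1-positive cells, 174 of them (64.2%) at least 2-fold, against 16.1% and 6.60% of all genes tested. In meiotic cells, which precede the stage, 243 (89.7%) also had all T libraries below all UC libraries, against 14.4% of all genes, and their median log2 ratio of T to UC there was −1.25 beside 0.05 over all genes. As markers of RNA from protamine-rich cells, Smcp, Odf1, Oaz3, Gapdhs, Tssk6, Prm1, Prm2, Tnp1 and Tnp2 were summed. These genes alone made up 0.0956% to 0.190% of the UMIs of meiotic cells in T and VC-T 1 and 0.836% to 1.41% in the other 11 libraries. Over all barcodes their share was 0.150% to 0.297% against 10.2% to 12.5%. VC-T 1 was nearer T than UC for 219 of the 271 lower genes and for 31 of the 70 higher ones, beside 3934 of all 7202 tested. In these groups the treatment, the position of the cells, the free RNA of protamine-rich cells and, with VC-T 1, the label move together and cannot be told apart.

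With an estimate of free RNA subtracted, 192 genes were called (142 lower and 50 higher), 184 of them shared with the 341. The estimate was the share of the summed marker genes in meiotic cells, as a percentage of their share over all barcodes. The T libraries gave no estimate of their own, as they lack the cells it rests on, and the median of the other 11, 8.98%, was used for them. Paqr5 was then at −2.97, 1700016C15Rik at −2.50, 4930512J16Rik at −2.49 and H2al3 at −2.44. 1700012A03Rik was at −2.28, 1700027A15Rik at −1.85 and Tfam at −1.74, and all of these were still called. Car2 was not among the genes tested there. Among cells with a protamine share under 1% Paqr5 was at −2.66, 1700012A03Rik at −2.73, 4930512J16Rik at −2.12, H2al3 at −1.94 and 1700027A15Rik at −1.83. Car2, Tfam and 1700016C15Rik were not among the genes tested in those cells. With UC and all 3 VC-T libraries as controls, 208 were called, 185 lower and 23 higher. When cells were matched on the axis, 56 per library, 33 of 4283 genes were called (19 lower, 14 higher). Of the 341, 93 could still be tested there and 18 were called again, which is 5.28% of the 341 and 54.5% of the 33. In that matched set Paqr5 was at −3.56, 1700012A03Rik at −3.00, Tfam at −2.36 and 1700027A15Rik at −1.94, all called. Car2, 1700016C15Rik, H2al3 and 4930512J16Rik were not among the genes tested in it. Cabs1 was at −0.72, Spata3 at −0.49, H2al2a at −0.57 and Ift172 at −0.25, none of them past both limits. The axis was built on VC-R round spermatids, and its genes include Paqr5, 1700012A03Rik, Tfam, 1700027A15Rik and Ift172. Matching on it was chosen after the data had been seen.

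When VC-T 1 was kept as a control, 4 genes of 7226 were called in T against the 3 VC-T libraries, all lower, with 1266 at an unadjusted p under 0.05. These 4 are named after their values were seen. Rps7, which encodes a protein of the small ribosomal subunit, had 701, 756 and 639 CPM in T. The VC-T libraries had 1305, 1226 and 1488, and the UC libraries 1439 to 1473. The change was −1.02 ± 0.12 against the 3 VC-T libraries (edgeR adjusted p = 0.0059) and −1.16 ± 0.08 against UC. Every T library lay below all 12 others, VC-T 1 included, and R had 1080.4 to 1339 CPM. Matched on the axis the Rps7 change was −1.003 (edgeR adjusted p = 2.7e-18), and in meiotic cells T had 926, 1050 and 1016 CPM against 1567, 1670 and 1742 in VC-T.

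Rpl7a, of the large subunit, had 106, 70.4 and 82.7 CPM in T against 186, 222 and 234 in VC-T and 237, 208 and 218 in UC (−1.35 against VC-T, edgeR adjusted p = 0.019, and −1.39 against UC when matched on the axis). Both ribosomal protein genes have near-identical pseudogene copies, and how reads were divided among copies is uncertain. Sec11c, a signal peptidase subunit gene, had 66.3, 61.2 and 31.8 CPM against 133, 156 and 149 in VC-T (−1.43). Against UC its change of −0.92 was not called. 4930478M13Rik had 4.85, 5.77 and 2.12 CPM against 26.5, 21.0 and 36.9 (−2.66). For each of the 4, T lay below every other library. All ribosomal protein genes together took a median 4.21% of UMIs in T and 4.57% in the 6 controls (exact permutation test over libraries, p = 0.25, 0.286 adjusted over 6 measures).

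**Figure D4:**
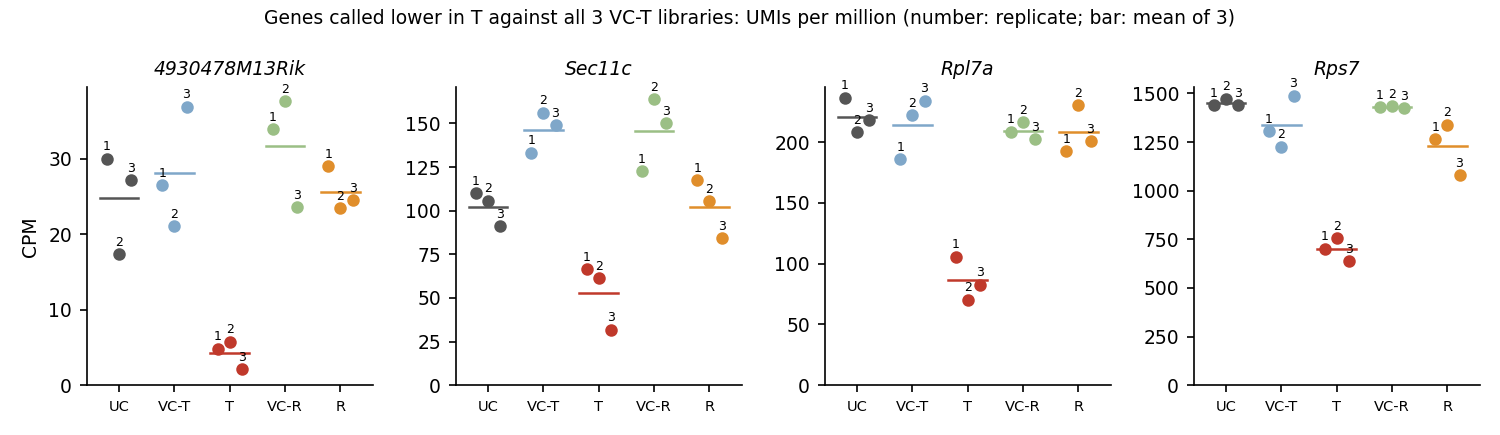
CPM on a linear axis from 0 in the Spam1-positive round spermatids of each library (points, by replicate number) with the mean of 3 libraries (bar), for 4930478M13Rik, Sec11c, Rpl7a and Rps7. In each panel the 3 T libraries lie below the other 12, for Rps7 at 639 to 756 CPM.

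Fewer genes were higher than lower in T. With a protamine share under 1% 44 were higher and 44 lower, and with cells matched on protamine share 129 and 53. Both sets were cut on the protamine and transition protein genes of the rule, so these counts are a description. The matched fit used 18 cells per library with a share of 0.1% to 0.5% and 4 with 0.5% to 2%, and tested 2321 genes. The median share of T cells was 0.0711%, below the lowest share of any UC cell, 0.117%. Psmb1, a proteasome subunit gene, was the only gene past 50 CPM called higher against both controls: 67.1, 47.3 and 63.7 CPM in T, 35.01, 22.5 and 24.9 in UC and 34.1, 24.0 and 28.9 in VC-T (1.02 ± 0.23 against UC, edgeR adjusted p = 0.0014). It lay just past the 2-fold limit and was not called when T 1, UC 2 or UC 3 was left out. Nor was it called with DESeq2, a replicate block, one fit of 14 libraries, or UC and all 3 VC-T libraries as controls. Against VC-T 2 and VC-T 3, 5 of 5 Sertoli cell genes tested were lower in T (Defb19, Cst12, Aard, Clu and Ctsl), where 4.94% of all genes were. The summed Sertoli list was at 5.77 to 99.5 CPM in T, 213 and 468 in VC-T 2 and VC-T 3, 26.5 in VC-T 1 and 52.0 to 108 in UC, and Amh was at 0 throughout. The part of Sertoli cell RNA in these 5 was not tested.

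Of 6 measures per cell, none differed in T after adjustment. The median mitochondrial share was 0.270% of UMIs in T and 0.0789% in the 6 controls (exact two-sided permutation test, p = 0.0119, the smallest possible, and 0.0714 adjusted over 6 measures). The mean over cells gave 0.356% and 0.298% (exact permutation p = 0.619). Genes detected at 2000 UMIs numbered 1340 and 1311 (exact permutation p = 0.0476, adjusted 0.143).

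After withdrawal few genes were called. Against UC 24 of 6781 genes (0.354%) were called in R, all higher (9 higher and 7 lower among cells with a protamine share under 1%), and against VC-R 18 of 6750 (0.267%), all higher. The 24 had adjusted p of 0.029 to 0.048 in edgeR's quasi-likelihood test, near its threshold. No list gene other than Defb19, higher against VC-R, was called, and Car2, Paqr5, Tssk6 and Rps7 were not called. The mitochondrially encoded genes led: 9 of 10 tested were higher against UC and 9 of 10 against VC-R.

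mt-Co1, a catalytic subunit of cytochrome c oxidase, had 943, 1092 and 2809 CPM in R. UC had 360, 293 and 393, and VC-R had 579, 432 and 445 (2.20 ± 0.35 on the log2 scale against UC). mt-Nd4l, a complex I subunit gene, had 35.8, 33.4 and 87.4 CPM against 3.33, 3.47 and 5.42 in UC (3.61 ± 0.52). R 3 was highest for both genes, and R 1 and R 2 also lay above all UC and VC-R libraries. This held for 12 of the 13 mitochondrial genes. The complex I genes mt-Nd2 (2.99), mt-Nd1 (2.91) and mt-Nd5 (2.35), the ATP synthase gene mt-Atp6 (2.45), and mt-Co2 (2.16) and mt-Co3 (2.14) rose as well. Without R 3 the changes were smaller but still called: 2.92 for mt-Nd4l, 2.19 for mt-Nd2, 2.00 for mt-Nd1, 1.71 for mt-Nd5 and for mt-Atp6, 1.49 for mt-Co1, 1.41 for mt-Co2 and 1.39 for mt-Co3. In T, 5 of 10 mitochondrial genes tested were called higher against UC, with mt-Co1 at 775, 725 and 984 CPM (1.11). Against VC-T 2 and VC-T 3 none of 12 was called, as mt-Co1 was at 625 and 835 CPM there.

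**Figure D5:**
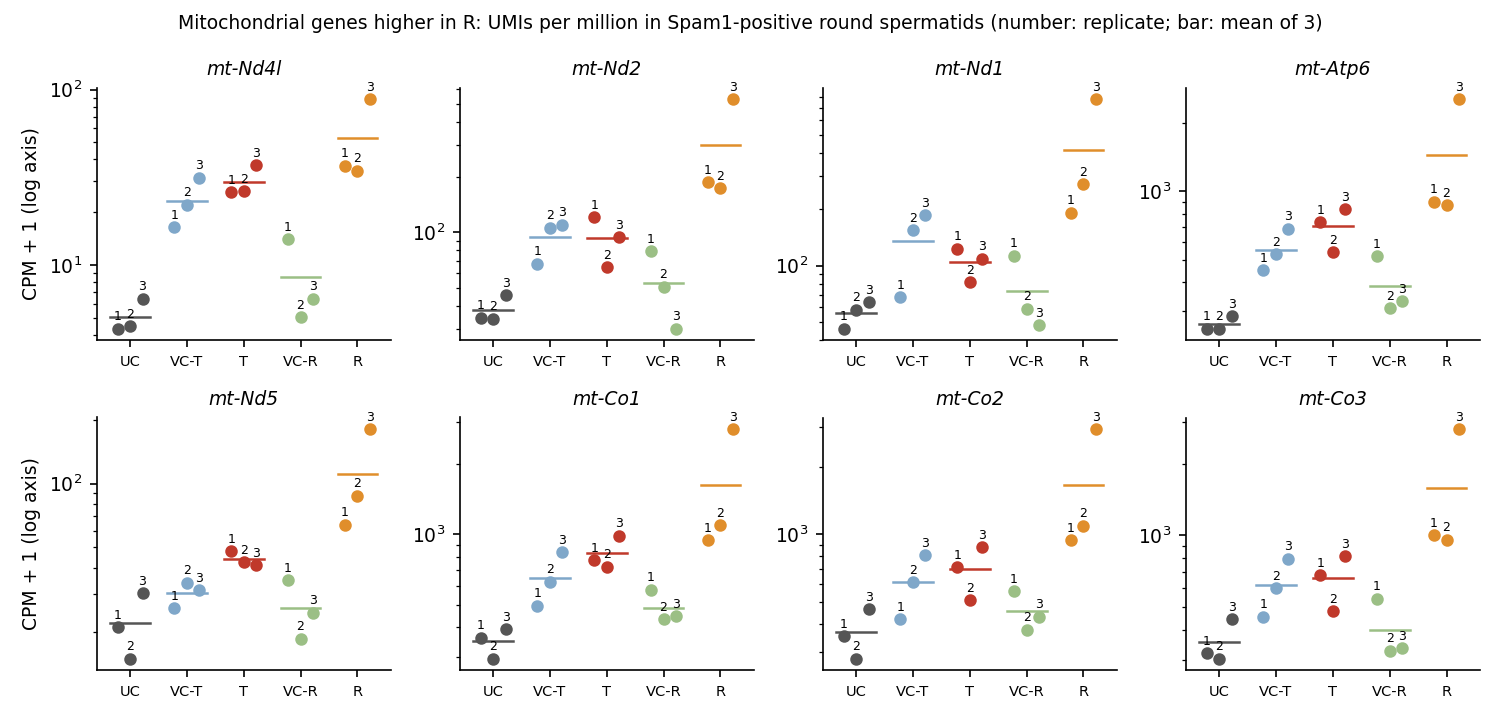
CPM + 1 on a log axis for 8 mitochondrially encoded genes in the Spam1-positive round spermatids of each library (points, by replicate number), with the mean of 3 libraries (bar). The R libraries lie above all UC and VC-R libraries, with R 3 the highest, for mt-Co1 at 943, 1092 and 2809 CPM.

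Outside the mitochondrial genome, Gm48051 had 532, 425 and 1069 CPM in R against 137 to 176 in UC (2.12, or 1.57 without R 3). The calls depended on which libraries entered. Without R 3, 77 genes were called, including 22 of the 24, without R 1 557 and without R 2 435, while without UC 1, UC 2 or UC 3 none was, with 1206, 1089 and 1205 at an unadjusted p under 0.05. Without the cells marked as doublets none passed either, with 1461 at an unadjusted p under 0.05 and adjusted p of 0.0584 to 0.0592 for the named genes, whose changes were about as large as before (3.68 for mt-Nd4l, 2.93 for mt-Nd2 and 2.14 for mt-Co1), and DESeq2 called 111 on all cells. R cells also had a higher median mitochondrial share (0.244% against 0.0806%), more genes at 2000 UMIs (1351 against 1309) and a lower share of ribosomal protein UMIs (3.74% against 4.52%), each with an exact two-sided permutation p of 0.0119, the smallest possible, and 0.0238 adjusted over 6 measures. Without R 3 the mitochondrial difference was 0.148 percentage points in place of 0.164. The ribosomal difference was then −0.330 points in place of −0.782, and that in genes was 19.9 in place of 42.1 and no longer passed (exact permutation p = 0.143).

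Markers of other cells moved with R. The summed Sertoli list was at 136, 329 and 835 CPM in R 1 to R 3 and 43.0 to 108 in UC and VC-R. Leydig cell genes summed to 137 CPM in R 2 and 1088 in R 3 against at most 33.6 elsewhere, and macrophage genes to 101 in R 1 and 126 in R 3. The part of this RNA in the R differences was not tested.

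Spam1-negative round spermatids gave more calls. In them 1903 of 8853 genes (21.5%) were called in T against UC, 1411 lower (15.9%) and 492 higher (5.56%). A fit across both classes, with the mouse as a term, tested whether the T change itself differed: 460 of 8771 genes (5.24%) were called, 409 with a change more positive in the Spam1-positive cells (4.66%) and 51 more negative (0.581%). Hmgb4, a late high-mobility-group gene on the late end of the axis, was 555 CPM in T and 969 in UC in the Spam1-positive cells, a log2 change of −0.90, and 474 and 1694 in the Spam1-negative cells, a change of −2.16. The difference of 1.23 ± 0.11 passed (edgeR adjusted p = 4.8e-11). For Rps7 the difference was 0.06 (edgeR adjusted p = 0.76). Of all round spermatids, both classes together, 2.19% lay in the last 3 bins in T, where the bins hold 30% in the 8 control libraries by construction, and the part of this in the difference was not tested.

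Few genes were called between the control groups. VC-T 1, with 0% protamine-rich cells where UC had 58.2% to 66.2%, was not in these fits. VC-T 2 and VC-T 3 differed from UC at 10 of 6818 genes (0.147%), and VC-R from UC at 6 of 6337 (0.0947%). A low count of calls does not show that the groups were alike. mt-Co1 was at 625 and 835 CPM in VC-T 2 and VC-T 3, against 293 to 393 in UC. The summed Sertoli list was at 213 and 468 CPM there, against 52.0 to 108 in UC.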

How the data were processed

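Single-cell suspensions of 1 testis per mouse were profiled in 15 libraries, 3 in each of 5 groups, with a 10x Genomics 3′ kit. The authors aligned reads to mouse mm10 with Cell Ranger (3.0.0 in the submitters' processing notes, 7.0.0 in the matrix headers; whether intronic reads were counted is not given in the sources used here) and deposited filtered matrices of UMI counts per gene and barcode, with 32285 genes. The authors' removal of free RNA and doublets followed these counts, so both are still present here. Groups came from the sample labels.

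Barcodes were kept from 500 detected genes and 2000 UMIs upward when under 30% of UMIs were mitochondrial. Doublets were scored with a simulation step (scanpy 1.11.5) that marks the top 5% per library, and were left in. The members and the gene lists were chosen with earlier results of these data known, and of 388 list entries 385 were found. Counts of the Spam1-positive cells were summed per library and tested with edgeR 4.0.16 (R 4.3.3; filterByExpr, TMM, quasi-likelihood, Benjamini-Hochberg adjustment, limits of adjusted p 0.05 and log2 change 1), T against UC, T against VC-T 2 and VC-T 3, R against UC and R against VC-R. The fit was tested on simulated data first. A library is 1 mouse, so p-values measure the spread between mice. Levels are CPM and are not per length, so genes were not compared with each other. For shares and cell measures, permutation tests over libraries were used, exact and two-sided (scipy 1.17.1), and shares have 95% Wilson intervals. A count of 0 was read as allowing up to 3 counts. Depth after summing was 332743 to 1236674 UMIs per library. The main fits used no block for the replicate number. Correlations of same-numbered libraries were 0.0492, 0.0569 and 0.0937 for T and UC, though each T library correlated best with its own number. Whether the numbers pair the mice is not known, and counts of calls with a block are given further on. The axis is the first principal component over 500 genes of VC-R round spermatids thinned to 2000 UMIs.

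Named genes were, for T and for R, up to 8 per direction with the largest change among genes called against UC and the same-time vehicle and reaching 50 CPM, the 10 leading genes outside the rule with at least 100 CPM, and list genes with the smallest adjusted p if called, or the highest level if not. Positions are from the GENCODE vM21 annotation (GRCm38) and promoters from RefSeq. Alternatives were DESeq2 1.42.0, other size factors, no count filter, a replicate block, thinning, subtraction of free RNA, doublets left out, stricter rules, matching, other controls and each library left out. Matching on the axis, thinning among round spermatids, axis positions, and some tests without single libraries were added after seeing the data. Results for some items are not reported here.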

Additional observations from a re-analysis of the deposited data

Results flagged for a closer look

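The T change differed between Spam1-positive and Spam1-negative round spermatids at 460 of 8771 genes in a fit with a term for the difference, edgeR's quasi-likelihood test at adjusted p under 0.05 and a difference over 1 on the log2 scale. Of these, 409 had the more positive change in the Spam1-positive cells. Banf2 was at −0.81 there and −2.40 in the Spam1-negative cells, a difference of 1.55, and H2al2a at −1.37 and −3.10, a difference of 1.68. In the other direction, 4933436I20Rik was at −0.11 and 1.30, a difference of −1.40. Both classes come from the same mice, and the mouse was a term of this fit. Spam1-negative cells lay later on the axis than Spam1-positive cells in the 3 UC libraries and earlier in the 3 T libraries (medians of −5.26, −5.87 and −5.44 against −3.50, −4.18 and −5.04 in T), and the part of that position in the difference was not tested.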

How the results depend on the processing

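Alternatives were followed gene by gene for some of the named genes, and for Keap1 and Cmc2, which are not described above. List genes such as Tssk6, Cabs1, Herpud1, H2al2a and Ift172 were not among them. Of these single-gene runs, 364 left the call and direction unchanged, 55 lost the call and 5 gained one, with no change of sign. For T against UC, where 341 genes were called, DESeq2 called 224, thinning to 2000 UMIs 118, subtraction of free RNA 192, a protamine share under 1% 88 (44 higher and 44 lower), matching on protamine share 182 (129 higher and 53 lower), matching on the axis 33 (14 higher and 19 lower) and UC with 3 VC-T libraries 208. Leaving out 1 library gave 305 to 431. Matched fits used at most 56 cells per library and tested fewer genes; other causes were not tested. Against the VC-T libraries, where 414 were called, adding VC-T 1 left 4, and leaving out 1 library gave 256 (without VC-T 2) to 690 (without VC-T 3), with 272 without T 2 and 268 without T 3.

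For R against UC, where 24 were called, DESeq2 called 111, other size factors 15, no count filter 615, one fit of 14 libraries 549, thinning 359, subtraction of free RNA 10, at least 4 markers 13, matching on protamine share 363 (271 higher and 92 lower), matching on the axis 161, and leaving out doublets 0, with 1461 at an unadjusted p under 0.05. Leaving out 1 library gave 0 (without any UC library) to 557 (without R 1), with 435 without R 2 and 77 without R 3. With no count filter the median log2 change of all genes was 0.35 beside 0.01. Against VC-R, where 18 were called, the range was 0 (without any VC-R library, with 1264, 794 and 836 at an unadjusted p under 0.05) to 421 (without R 1), with 324 without R 2 and 34 without R 3. Leaving out 1 library gave 3 (without UC 2) to 32 (without VC-T 2) genes for VC-T against UC, with 4 without UC 1. For VC-R against UC it gave 2 (without VC-R 2, VC-R 3 or UC 3) to 5, with 3 without UC 1. The causes were not tested.

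With the replicate number as a replicate block, T against UC gave 391 calls, T against VC-T 543, R against UC 326 and R against VC-R 204. In T and UC each library correlated best with its own number, as a hint from the data only. Of the 23 genes followed gene by gene in that fit, 2 lost and 1 gained the call.

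The T share of kept cells exceeded controls by 1.51 to 2.65 percentage points when 1 library was left out, the last without VC-T 1. The R share differed by −2.92 points with a protamine share under 1%, by −11.1 among round spermatids and by −5.13 among thinned round spermatids, each past the threshold. For T, the mean in place of the median gave 28.0 more genes at 2000 UMIs and 0.0581 points more mitochondrial UMIs, neither past it, and leaving out 1 library gave 25.7 to 34.6 genes. For R, leaving out 1 library gave differences of −834 to 663 UMIs (the latter without R 3), −131 (without R 1) to 284 genes, −32.8 without R 2, and 19.9 (without R 3) to 53.4 genes at 2000 UMIs. The mean X-linked share in R differed by 0.0192 points, where the median differed by −0.0497. With 3 mice per group the exact test against 3 libraries cannot go below p = 0.1, and summed depths of 332743 UMIs or more leave genes under a few CPM without a test.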
